A study of Mus musculus with 8 samples.

Results

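The α-chain clonotypes built on the TRAV16 segment of the mouse T-cell receptor (TCR) were examined in the host's own CD8+ T cells (en-T cells, for endogenous) of tumor-bearing mice. A TCR α-chain is made by joining 1 of many TRAV segments to 1 of many TRAJ segments, and bases are trimmed and added where they meet. That junction is the complementarity-determining region 3 (CDR3), the stretch of the chain that usually faces the antigen peptide, whereas the rest of the V segment carries the loops that mostly touch the MHC molecule. In the C57BL/6 mouse a large part of the TRAV region is repeated, so that TRAV16 exists as 3 near-identical copies, TRAV16D-DV11, TRAV16N and TRAV16. Joining to TRAJ starts at the end of the TRAJ cluster that lies nearest to the V segments, where TRAJ numbers are highest, and a later joining on the same chromosome uses a V segment farther upstream and a TRAJ with a lower number.

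The members were chosen by the V name of each row, TRAV16 or TRAV16N, without the copy that also serves the δ-chain and bears a DV name. They numbered 3104 clonotype rows of 53249 in the 8 α-chain libraries. All 3104 were named TRAV16N, and 0 were named TRAV16. With 0 of 10000 reads in each library, a share of up to 0.03% per library is allowed for rows of that name (3 reads, counting error only). Of the 108 functional TRAV genes that GENCODE vM21 annotates on chromosome 14 of GRCm38, 107 were named in the α-chain files, and TRAV16 was the one that was not. All values below are therefore those of TRAV16N, with TRAV16D-DV11 as the comparator. Whether reads of TRAV16 itself were given the name of another copy was not tested.

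All 8 mice were C57BL/6 females carrying B16-F10 melanoma. All were lymphodepleted on day 3 with cyclophosphamide (CTX) at 300 mg/kg. CD8+ T cells of Pmel-1 mice followed on day 5, whose transgenic TCR recognizes the melanoma antigen gp100, together with IL-2. The 3 mice of the CTX group received nothing further, and the 5 mice of the CTX_CD4 group also received 200 μg anti-CD4 antibody, which depletes CD4+ cells, on days 10, 17 and 24. On day 25 the host's own CD8+ T cells were sorted from lymph nodes and spleen as cells without the Thy1.1 marker of the transferred cells. The sort served to leave out the transgenic receptor, and the α-chain libraries were not searched for it here. The files hold TCR chains alone, so the CD8+ label was not checked against other genes. Each α-chain library held exactly 10000 reads after the authors' down-sampling and 5043 to 7695 clonotypes, fewest in CTX_CD4 mouse 5. The libraries of CTX_CD4 mice 1 and 2 shared 200 CDR3 sequences found in no other mouse, against 87 to 181 for the other 27 pairs of mice. Of TRAV16N CDR3 sequences that pair alone shared 11, within the 8 to 24 of the other pairs, and 9 TRAV16N rows with 17 reads of mouse 2 were affected.

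The 3 copies lie on the forward strand of chromosome 14 (GRCm38), with TRAV16D-DV11 (ENSMUSG00000076796.1) at chr14:53047287-53047821, TRAV16N (ENSMUSG00000076822.2) at chr14:53351028-53351621 and TRAV16 (ENSMUSG00000076855.5) at chr14:53743104-53743705. TRAV16D-DV11 lies 1107183 bp, TRAV16N 803383 bp and TRAV16 411299 bp upstream of TRAJ61, the first segment of the TRAJ cluster. In each copy the exon that encodes the V region has 301 bases. Counted from 1 at the first base of that exon, TRAV16N differed from TRAV16 at 4 positions (G51A, T193A, G194A and C251T, 98.7% identity) and from TRAV16D-DV11 at 3 (G51A, G94A and A272G, 99% identity), where the first base is that of TRAV16N. Both stretches that hold these positions are shown because no other base of this exon differs among the copies, with the differing bases in capitals. Bases 45 to 100 of the exon read as follows (chr14:53743449-53743504 for TRAV16, chr14:53351365-53351420 for TRAV16N and chr14:53047565-53047620 for TRAV16D-DV11).
TRAV16: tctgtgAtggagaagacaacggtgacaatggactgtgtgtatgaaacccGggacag
TRAV16N: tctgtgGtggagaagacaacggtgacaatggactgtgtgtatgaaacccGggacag
TRAV16D-DV11: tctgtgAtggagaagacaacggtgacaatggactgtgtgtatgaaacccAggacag
Bases 187 to 301, which run to the 3′ end of the exon, read as follows (chr14:53743591-53743705, chr14:53351507-53351621 and chr14:53047707-53047821 in the same order).
TRAV16: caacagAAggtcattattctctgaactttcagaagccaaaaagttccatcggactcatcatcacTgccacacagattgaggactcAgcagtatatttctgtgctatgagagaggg
TRAV16N: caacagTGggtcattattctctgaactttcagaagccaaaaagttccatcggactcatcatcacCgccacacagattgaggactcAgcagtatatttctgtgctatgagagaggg
TRAV16D-DV11: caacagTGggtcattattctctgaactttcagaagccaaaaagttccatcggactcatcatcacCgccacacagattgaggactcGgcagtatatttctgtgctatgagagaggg
The last 17 bases, from position 285, are the germline start of the CDR3, and they are identical in all 3 copies. The deposited CDR3 sequences therefore hold no base by which the copies differ.

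How the copies were named across mice was examined next. Within a library every CDR3 nucleotide sequence stood in 1 row under 1 V name, so 0 sequences carried both TRAV16N and TRAV16D-DV11 in the same mouse. Across mice, 641 combinations of CDR3 and TRAJ were found under either name in 2 or more mice, and 343 of them (53.5%) were TRAV16N in some mice and TRAV16D-DV11 in others. These 343 made up 14.2% of all 2419 TRAV16N combinations and 23.9% of the 1438 TRAV16D-DV11 combinations. By contrast, 40 TRAV16N combinations (1.65%) stood under a V name that was neither copy in any mouse. Values for TRAV16N against TRAV16D-DV11 therefore compare rows by these names.

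TRAV16N was the V segment with the most reads. It took 6.06%, 6.44% and 5.87% of α-chain reads in CTX mice 1, 2 and 3. In CTX_CD4 mice 1 to 5 it took 6.61%, 6.96%, 7.38%, 7.52% and 9.49%. All 5 CTX_CD4 mice lay above all 3 CTX mice, the nearest values being 6.44% (Wilson 95% interval 5.98 to 6.94) and 6.61% (6.14 to 7.11), which overlap in counting error. Among 116 V names TRAV16N ranked first in every CTX_CD4 mouse and second in every CTX mouse. The group means were 6.12% ± 0.29 (SD, n = 3) and 7.59% ± 1.12 (SD, n = 5), and the exact Mann–Whitney test gave p = 0.0357, the smallest value that 3 against 5 mice can give (adjusted p = 0.571 over 80 V segments). The same test called 6.25% of the 80 segments. Over all 103 V segments with enough reads, edgeR's quasi-likelihood test gave a log2 fold change of 0.33 (SE 0.15) for TRAV16N reads, with an adjusted p of 0.743, so the difference did not pass the threshold. In the same test the log2 fold change was 0.16 for reads in clonotypes under 10 reads, 0.49 for reads in clonotypes of 2 or more reads and 0.07 for the number of clonotypes (edgeR adjusted p = 0.736, 0.296 and 0.874). In that edgeR test 0% of the 103 segments were called at an adjusted p under 0.05, with 6 at an unadjusted p under 0.05, and DESeq2 called 0 and 3. Reads of a segment count cells, RNA per cell and PCR copies together, and these cannot be told apart here.

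**Figure D1:**
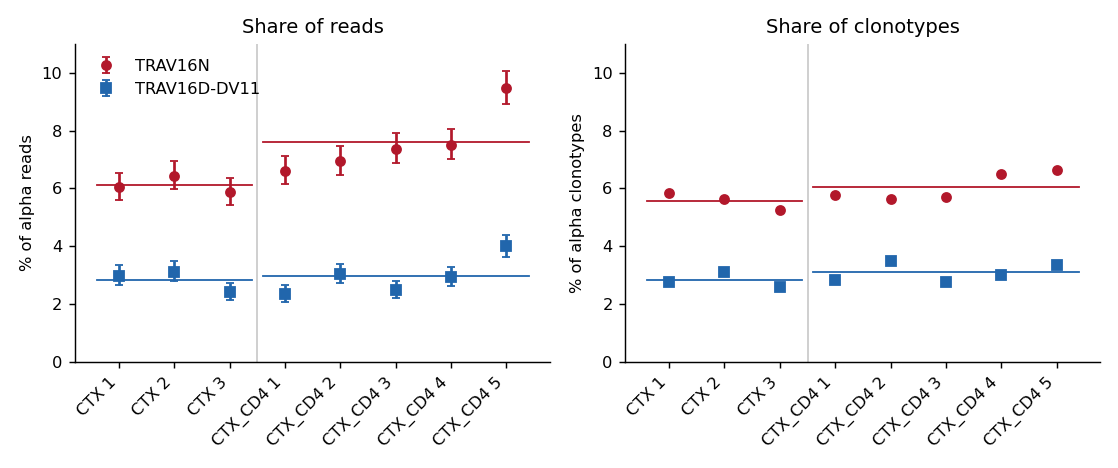
Share of α-chain reads (left, with Wilson 95% intervals) and of α-chain clonotypes (right) per mouse for TRAV16N (red circles) and TRAV16D-DV11 (blue squares), in percent, with group means as horizontal lines. TRAV16N read shares run from 5.87% to 6.44% in the CTX mice and from 6.61% to 9.49% in the CTX_CD4 mice, whereas its clonotype shares overlap.

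The copy TRAV16D-DV11 took 2.98%, 3.12% and 2.42% of reads in the CTX mice and 2.33%, 3.04%, 2.48%, 2.94% and 4% in the CTX_CD4 mice, with overlapping groups (log2 fold change 0.08, SE 0.21, edgeR adjusted p = 0.931). TRAV16N held 2.03 to 2.98 times as many reads as this copy. With both copies counted as 1 segment the log2 fold change of reads was 0.26 (edgeR adjusted p = 0.704). The V segments whose read shares ordered the 8 mice most like TRAV16N were TRDV2-1 (Spearman's rho 0.814, mean share 0.119%), TRAV4D-3 (0.683, 0.269%) and TRAV19 (0.671, 3.18%), given as a description of 8 libraries of equal depth. TRAV16D-DV11 was the 14th by this measure (rho 0.357).

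The number of TRAV16N clonotypes did not follow the reads. The CTX mice held 421, 428 and 369 TRAV16N clonotypes, and the CTX_CD4 mice held 343, 433, 385, 390 and 335. The groups overlapped, with means of 406 ± 32.2 (SD, n = 3) and 377 ± 39.7 (SD, n = 5; exact Mann–Whitney p = 0.571), where 8.75% of the 80 V segments passed. As a share of each library's clonotypes TRAV16N made up 5.26% to 5.84% in CTX mice and 5.63% to 6.64% in CTX_CD4 mice. The mean of this share was 5.58% in CTX and 6.05% in CTX_CD4 mice, higher as for the reads, but with overlapping groups. Reads per TRAV16N clonotype were 1.44, 1.50 and 1.59 in the CTX mice and 1.93, 1.61, 1.92, 1.93 and 2.83 in the CTX_CD4 mice. Every CTX_CD4 value lay above every CTX value, although CTX_CD4 mouse 2 was close to CTX mouse 3. Over all V segments, reads per clonotype were 1.39, 1.32 and 1.42 in the CTX mice and 1.68, 1.30, 1.48, 1.66 and 1.98 in the CTX_CD4 mice, higher than every CTX mouse in 4 of the 5. Clonotypes of 1 read made up 59.7% to 71.8% of TRAV16N clonotypes in the 8 mice.

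Expanded clonotypes, defined as those of 10 or more reads, held a larger part of TRAV16N reads in the CTX_CD4 group. The expanded share of TRAV16N reads was 0%, 5.12% and 0% in CTX mice 1 to 3. It was 11%, 7.76%, 21%, 11.3% and 41.7% in CTX_CD4 mice 1 to 5. The lowest CTX_CD4 mouse lay above the highest CTX mouse. The means were 1.71% ± 2.96 (SD, n = 3) and 18.6% ± 13.9 (SD, n = 5), with exact Mann–Whitney p = 0.0357, the smallest value possible, and an adjusted p of 0.952 over the 80 segments. An exact permutation test of the means gave p = 0.0714. Of the 80 segments 3.75% were called by the Mann–Whitney test, and all 3 of them (TRAV16N, TRAV3N-3 and TRAV7D-2) were higher in CTX_CD4. Over the 80 segments 49 were higher in CTX_CD4 and the median difference was 4.43 percentage points, against 16.9 for TRAV16N.

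**Figure D2:**
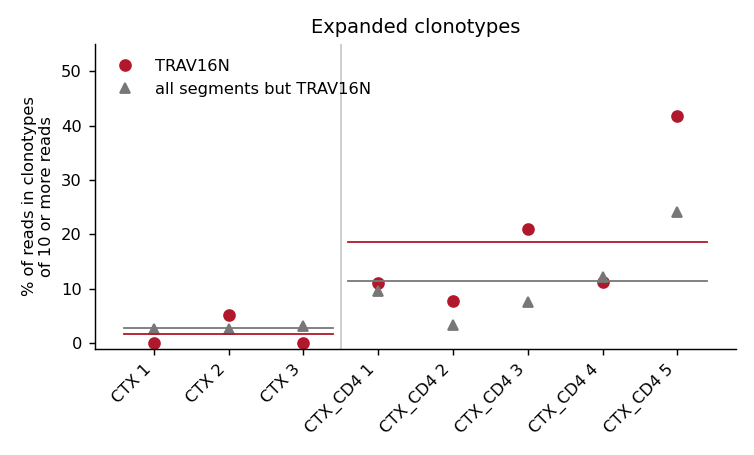
Percent of reads in clonotypes of 10 or more reads per mouse, for TRAV16N (red circles) and for all other V segments of the same library (grey triangles), with group means as lines. Both are at 5.12% or less in the CTX mice, and CTX_CD4 mouse 5 is the highest in both, at 41.7% and 24.2%.

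The other V segments of the same libraries moved in the same direction. Their expanded share was 2.77% ± 0.32 (SD, n = 3) in CTX and 11.4% ± 7.86 (SD, n = 5) in CTX_CD4 mice (exact Mann–Whitney p = 0.0357). The difference between TRAV16N and the other segments of the same mouse was −2.58, 2.54 and −3.13 percentage points in the CTX mice. In the CTX_CD4 mice it was 1.35, 4.37, 13.5, −0.926 and 17.5 points. These overlapped between the groups (exact Mann–Whitney p = 0.143), so a larger shift in TRAV16N than in the rest of the repertoire was not shown. In all, 29 TRAV16N clonotypes reached 10 reads, 2 in the 3 CTX mice and 27 in the 5 CTX_CD4 mice, and they used 19 TRAJ segments. Over all V segments 301 α-chain clonotypes did so, and these were not split by group. At the threshold, 1 clonotype had 10 reads and 5 had 9. Of the 29, 16 were found in 1 mouse. With the mice of both groups pooled, expanded clonotypes were 0.934% of TRAV16N rows and 0.542% of the rows of other V segments.

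The most abundant TRAV16N clonotype of each mouse is shown to give the sequences behind these counts. In CTX mice 1 and 3 it had under 10 reads. Without the most abundant clonotype of each mouse the expanded share still differed between the groups, by 11.7 percentage points (exact Mann–Whitney p = 0.0357). CDR3 nucleotides are in lower case where they match the germline V or TRAJ end and in capitals where they match neither.
CTX mouse 1, TRAJ30, 6 reads: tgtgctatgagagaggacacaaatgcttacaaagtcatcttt
CTX mouse 2, TRAJ40, 17 reads: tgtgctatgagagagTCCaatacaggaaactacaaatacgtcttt
CTX mouse 3, TRAJ31, 8 reads: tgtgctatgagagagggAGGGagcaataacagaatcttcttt
CTX_CD4 mouse 1, TRAJ44, 30 reads: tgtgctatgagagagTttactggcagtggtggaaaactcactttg
CTX_CD4 mouse 2, TRAJ27, 29 reads: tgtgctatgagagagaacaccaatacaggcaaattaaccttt
CTX_CD4 mouse 3, TRAJ45, 83 reads: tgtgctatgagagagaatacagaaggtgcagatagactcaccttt
CTX_CD4 mouse 4, TRAJ30, 24 reads: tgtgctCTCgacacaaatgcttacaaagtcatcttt
CTX_CD4 mouse 5, TRAJ31, 123 reads: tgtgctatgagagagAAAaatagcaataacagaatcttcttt
The clonotypes of CTX mice 1 and 3 each tied with 1 other at the same count. The TRAJ31 clonotype of CTX_CD4 mouse 5 held 13% of that mouse's TRAV16N reads and was found in no other mouse. The TRAJ45 clonotype of CTX_CD4 mouse 3 held 11.2% of its TRAV16N reads, and it was also found under the name TRAV16N in 3 other mice, at 3, 3 and 9 reads, and under the name TRAV16D-DV11 in 2 mice, at 5 reads in all. Of the 8 clonotypes, 4 were found in 1 mouse.

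The TRAJ partners of TRAV16N spread over the whole cluster. All 43 TRAJ names in the α-chain files were joined to TRAV16N, 38 of them in all 8 mice, and 1 further TRAV16N clonotype carried TRDJ1, a J of the δ-chain. The 5 most used partners by clonotypes were TRAJ22 (194 clonotypes, 6.25%), TRAJ23 (160, 5.15%), TRAJ30 (142, 4.57%), TRAJ37 (138, 4.45%) and TRAJ45 (134, 4.32%). Together they made up 24.7% of TRAV16N clonotypes and 20.4% of the clonotypes of other V segments. TRAJ37 and TRAJ45 were more frequent with TRAV16N than with the other segments in 8 of 8 mice, TRAJ37 at 4.45% against 2.83% and TRAJ45 at 4.32% against 2.89%. TRAJ15, TRAJ21, TRAJ32 and TRAJ35 were less frequent in 8 of 8 mice, with TRAJ35 at 0.0966% against 0.622%. The copy TRAV16D-DV11 lay on the same side of the other segments, at 4.40% for TRAJ37, 4.09% for TRAJ45 and 0.189% for TRAJ35. The 5 most used partners were picked by their order among all TRAJ segments. The 2 more frequent and the 4 less frequent were picked for lying on 1 side in 8 of 8 mice. All are described with no test.

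**Figure D3:**
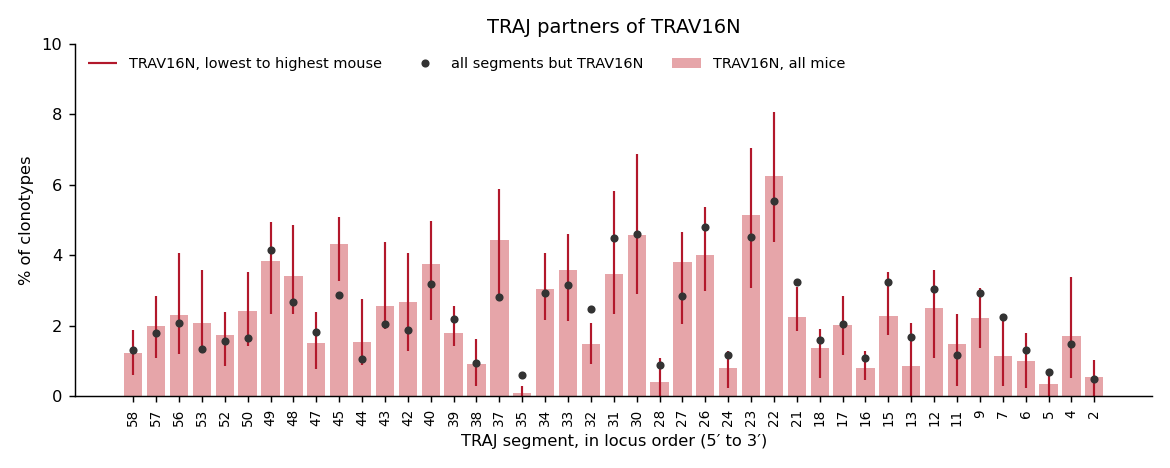
Percent of TRAV16N clonotypes joined to each TRAJ segment (bars, all mice together, and vertical lines from the lowest to the highest mouse), with the percent among clonotypes of all other V segments (black points), in locus order from 5′ to 3′. TRAJ22 is the most used partner at 6.25%, and TRAJ37 and TRAJ45 stand above the other segments in all 8 mice.

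The mean TRAJ number gives the position along the cluster. For TRAV16N it was 32.1, 32.2 and 32.8 in the CTX mice and 33.5, 33.8, 30.9, 31.4 and 32.2 in the CTX_CD4 mice, with means of 32.4 ± 0.41 (SD, n = 3) and 32.4 ± 1.26 (SD, n = 5) and exact Mann–Whitney p = 1 (3.75% of the 80 segments called). Within each mouse it was higher than that of the other V segments, by 1.86 ± 0.92 on average (SD, 8 of 8 mice, exact sign-flip permutation p = 0.0078, the smallest that 8 mice can give). However, 85% of the 80 V segments differed from the rest by this test, and TRAV16N was the 26th from the highest. Segments TRAJ41 and above took 31.6% of TRAV16N clonotypes against 26.4% of the others, and TRAJ20 and below took 18.3% against 23%. Compared with TRAV16D-DV11, which lies farther from the TRAJ cluster, the mean TRAJ number of TRAV16N was lower in 7 of 8 mice, by 2.59 ± 2.42 (SD, n = 8; exact sign-flip permutation p = 0.0156). The adjusted p was 0.0469 over 3 measures, which were TRAJ number, CDR3 length and inserted nucleotides. The germline match and the expanded share were also compared between the copies and were not in this adjustment.

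No TRAV16N–TRAJ pair differed between the groups past the threshold. Over all 256 V-J pairs with enough reads, 0% were called by edgeR at an adjusted p under 0.05 (14 at an unadjusted p under 0.05; DESeq2 called 0 and 12). Of the 32 pairs of TRAV16N among them, 21 were higher in CTX_CD4, against 117 of the 224 other pairs. The median log2 fold change was 0.18 for the pairs of TRAV16N and 0.03 over all pairs. These pairs divide up the reads of TRAV16N, whose share was itself higher in CTX_CD4 mice, so the counts are not separate from it. At an unadjusted p under 0.05 edgeR gave the pairs with TRAJ32 and TRAJ30. Reads of TRAV16N–TRAJ32 were 7, 6 and 8 in the CTX mice and 30, 17, 12, 12 and 9 in the CTX_CD4 mice (edgeR adjusted p = 0.818). Reads of TRAV16N–TRAJ30 were 29, 29 and 21 in the CTX mice and 29, 23, 39, 87 and 88 in the CTX_CD4 mice (edgeR adjusted p = 0.818), high in CTX_CD4 mice 4 and 5 alone.

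Of the TRAV16N–TRAJ30 reads, 40 of 87 in CTX_CD4 mouse 4 and 59 of 88 in mouse 5 lay in short CDR3 of 36 bases, a group picked after its values were seen and given with no test. Reads of these short joins were 0, 3 and 0 in the CTX mice and 9, 0, 3, 40 and 59 in the CTX_CD4 mice. Longer TRAV16N–TRAJ30 joins had 29, 26 and 21 reads in the CTX mice and 20, 23, 36, 47 and 29 in the CTX_CD4 mice, and overlapped between the groups. The short joins of TRAV16D-DV11 had 0, 0 and 3 reads in the CTX mice and 0, 2, 0, 0 and 59 in the CTX_CD4 mice, the 59 reads being 1 clonotype of mouse 5. The V segments other than both copies had 65 to 107 reads of TRAJ30 joins of this length in CTX and 68 to 103 in CTX_CD4 mice. Short joins of both copies are shown where different nucleotides at the junction encoded the same residues (first 7 lines). Joins found in both CTX_CD4 mice 4 and 5 follow, with capitals as above. The remaining short joins are left out, among them those of CTX mouse 2 (TRAV16N, 3 reads) and CTX mouse 3 (TRAV16D-DV11, 3 reads).
CTX_CD4 mouse 1, TRAV16N, 9 reads: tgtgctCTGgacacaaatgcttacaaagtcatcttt
CTX_CD4 mouse 3, TRAV16N, 2 reads: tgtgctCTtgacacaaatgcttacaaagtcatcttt
CTX_CD4 mouse 3, TRAV16N, 1 read: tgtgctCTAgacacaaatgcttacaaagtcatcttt
CTX_CD4 mouse 4, TRAV16N, 24 reads: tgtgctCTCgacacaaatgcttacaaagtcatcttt
CTX_CD4 mouse 5, TRAV16N, 1 read: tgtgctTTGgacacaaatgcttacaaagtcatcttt
CTX_CD4 mouse 5, TRAV16N, 1 read: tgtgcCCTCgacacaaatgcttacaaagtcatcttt
CTX_CD4 mouse 5, TRAV16D-DV11, 59 reads: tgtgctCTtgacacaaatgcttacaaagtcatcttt
CTX_CD4 mouse 4, TRAV16N, 12 reads, and mouse 5, TRAV16N, 39 reads: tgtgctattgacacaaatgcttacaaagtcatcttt
CTX_CD4 mouse 4, TRAV16N, 1 read, and mouse 5, TRAV16N, 18 reads: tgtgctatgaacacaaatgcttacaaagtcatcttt
The first 7 lines hold 6 nucleotide forms of the same 12 residues. Under the names of these copies they were found in 4 CTX_CD4 mice with 97 reads, 59 of them the TRAV16D-DV11 clonotype. Under the same names they had 0 reads in the 3 CTX mice. These residues were not searched for under other V names. Among 1965 combinations of residues and TRAJ of TRAV16N, 323 (16.4%) had more than 1 nucleotide form, and this one had the most. Of the 89 combinations with 3 or more forms, 75 were found in both groups, 11 in CTX_CD4 mice alone and 3 in CTX mice alone, with 5 and 3 mice in the groups.

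**Figure D4:**
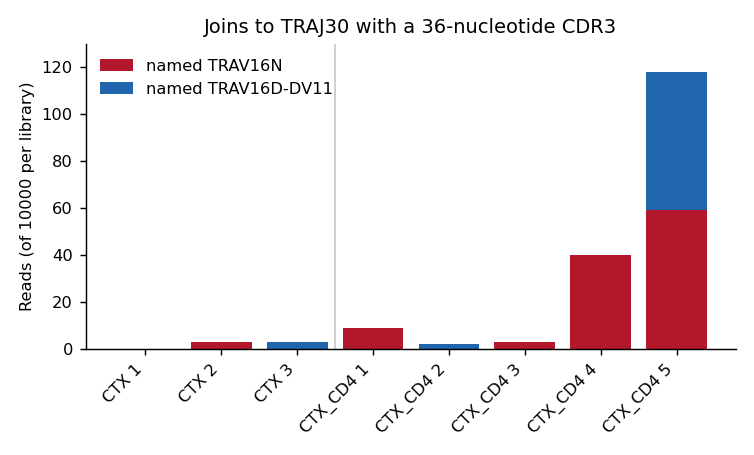
Reads per library (of 10000) of joins to TRAJ30 with a CDR3 of 36 nucleotides under the names TRAV16N (red) and TRAV16D-DV11 (blue), stacked, for each mouse. The CTX mice hold 0, 3 and 3 reads over both names, and CTX_CD4 mice 4 and 5 hold 40 and 118.

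TRAV16N clonotypes had long CDR3, whose germline start comes with the V name itself. Their mean CDR3 length was 44.5, 44.6 and 44.7 nucleotides in the CTX mice and 44.5, 44.2, 45, 44.2 and 44.3 in the CTX_CD4 mice. The groups overlapped at 44.6 ± 0.11 (SD, n = 3) and 44.4 ± 0.32 (SD, n = 5; exact Mann–Whitney p = 0.25, 3.75% of the 80 segments called). The other V segments of the same mice averaged 40.7 to 40.9 nucleotides. TRAV16N was longer by 3.73 ± 0.26 nucleotides (SD, 8 of 8 mice, exact sign-flip permutation p = 0.0078), the second largest difference of the 80 segments, after TRAV16D-DV11 at 3.90. By this test 73.8% of the segments differed from the rest. The most common length was 45 nucleotides with 33.7% of TRAV16N clonotypes, against 42 nucleotides with 30.5% among the other segments. TRAV16N and TRAV16D-DV11 themselves differed by −0.276 nucleotides (SD 0.40, lower in 6 of 8 mice; exact sign-flip permutation p = 0.117).

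**Figure D5:**
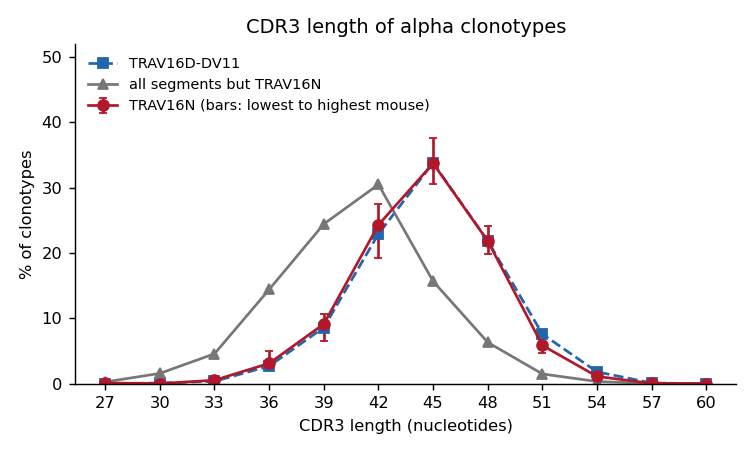
Distribution of CDR3 length from 27 to 60 nucleotides, as percent of clonotypes, for TRAV16N (red, bars from the lowest to the highest mouse), TRAV16D-DV11 (blue) and all V segments but TRAV16N (grey). The TRAV16N curve peaks at 45 nucleotides with 33.7% as does that of its copy, and the others peak at 42 with 30.5%.

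By the deposited segment ends, the length came with fewer inserted bases than the average of the other segments. By the deposited V end and J start, TRAV16N clonotypes held 1.70, 1.63 and 1.60 nucleotides between the segments in the CTX mice and 1.82, 1.61, 1.73, 1.65 and 1.93 in the CTX_CD4 mice. The group means were 1.64 ± 0.05 (SD, n = 3) and 1.75 ± 0.13 (SD, n = 5; exact Mann–Whitney p = 0.25, 2.5% of the 80 segments called). The other V segments averaged 2.22 to 2.28, and TRAV16N lay below them in 8 of 8 mice by −0.538 ± 0.13 on average (SD; exact sign-flip permutation p = 0.0078, 46.2% of the segments called). TRAV16N was not the lowest segment. With all mice together it averaged 1.70, TRAV17 1.59 and TRAV9D-2 1.44. The average of the other segments includes TRAV9-2, which stood at 10.4. TRAV16D-DV11 averaged 1.78 (TRAV16N minus this copy −0.0747, exact sign-flip permutation p = 0.383). Compared with the germline base by base, TRAV16N clonotypes matched 14.9 to 15.3 of the 17 V bases and 26.7 to 27.2 TRAJ bases on average. In 14.4% to 19.4% no base lay outside the germline ends. The mean number outside was 2.45 in CTX and 2.58 in CTX_CD4 mice. The deposited V end ran past this match in 29.6% of TRAV16N rows. By the match, TRAV16N minus TRAV16D-DV11 was −0.336 (higher in 0 of 8 mice, exact sign-flip permutation p = 0.0078). V segments other than these copies were not matched this way. All 17 V bases were matched in 37.4% to 43.6% of clonotypes, and in 57.1% of these the next base was a C. A matching base can also be an added base or a TRAJ base, so a full match does not show an untrimmed V end. All CDR3 were in frame, with 0 stop codons.

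TRAV16N clonotypes were often found in more than 1 mouse. Of 2419 TRAV16N clonotypes, defined by CDR3 nucleotides, V and J, 395 (16.3%) were found in 2 or more mice, the highest share of the 80 V segments, whose median was 3.58%. TRAV12N-3, with 2545 clonotypes, came next at 14.4%, and TRAV19, with 1216, had 13.6%. TRAV16N and TRAV12N-3 each had 20 clonotypes found in 6 or more mice. TRAV7-5, with 1711 clonotypes, had 7.25%, and TRAV16D-DV11, with 1438, had 8.55%. Whether the share depends on the number of clonotypes of a segment was not tested. With the V name ignored, 618 of the TRAV16N sequences were found in 2 or more mice. In each mouse 31.8% to 37.9% of TRAV16N clonotypes were shared with another mouse, against 12.7% to 14.5% of the clonotypes of other segments. Of the 395, 267 were found in both groups, 97 in CTX_CD4 mice alone and 31 in CTX mice alone. The CTX_CD4 group forms 10 pairs of mice and the CTX group 3. This split was not made for the other V segments. Pairs of mice shared 34 to 66 TRAV16N clonotypes, and the median Jaccard index was 6.18% within CTX, 5.90% within CTX_CD4 and 5.86% between the groups. CTX_CD4 mice 1 and 2 shared 46 (6.30%). Mice enter several pairs, so these values are given with no test.

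Shared TRAV16N clonotypes lay closer to the germline. Per mouse, those shared with another mouse held 1.06 to 1.38 bases outside the germline ends and unshared ones 3.01 to 3.61. Of the 20 TRAV16N clonotypes found in 6 or more mice, 12 had no such base, and they had 9 to 36 reads over all mice. The 2 clonotypes found in all 8 mice are shown because neither holds a base outside the germline ends.
TRAJ43: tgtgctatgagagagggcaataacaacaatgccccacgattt
TRAJ22: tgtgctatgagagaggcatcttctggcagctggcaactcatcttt
The TRAJ43 clonotype had 2, 6 and 8 reads in the CTX mice and 1, 4, 6, 7 and 2 in the CTX_CD4 mice. The TRAJ22 clonotype had 3, 1 and 4 reads in the CTX mice and 5, 3, 8, 6 and 5 in the CTX_CD4 mice. Both were below 10 reads in each mouse.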

How the data were processed

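RNA of sorted en-T cells was amplified with a SMARTer mouse TCR a/b kit by nested PCR and sequenced on a MiSeq. The authors trimmed the reads with Scythe and Sickle, aligned them in MiXCR, extracted chains with VDJtools and down-sampled each library, and deposited 1 table of clonotype read counts per chain and mouse, with V, J, CDR3 sequence, V end and J start as base positions in the CDR3. No version or segment library of MiXCR is given in the sources used here. The labels name mm10, and germline sequence was read from GRCm38 with GENCODE vM21 gene models. β-chain tables and the deposited fractions were not used. Molecular identifiers are not named, so intervals and floors (95% Wilson, 3 reads) cover counting error only.

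For V segments and V-J pairs that reached 10 reads in 3 or more mice, reads were tested in edgeR 4.0.16 (TMM, quasi-likelihood test, under R 4.3.3, Benjamini-Hochberg over the whole table, threshold 0.05), with DESeq2 1.42.0 as an alternative. Values per mouse were compared by exact two-sided Mann–Whitney tests over all 80 V segments with a mean of at least 20 clonotypes per mouse, or by exact two-sided sign-flip permutation within mice (Python 3.11.15, scipy 1.17.1), and limma 3.58.1 was an alternative. p-values measure the spread between mice. Tests were checked on simulated data. Named were TRAV16N and its copy, the 5 most used TRAJ partners, the most abundant clonotype of each mouse, clonotypes of 6 or more mice and the 3 segments most alike in read share. The members, lists and tests were chosen with earlier results of these data known.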

Additional observations from a re-analysis of the deposited data

Results flagged for a closer look

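Among 35 sets of 5 CTX_CD4 values tested for a value far from the others, 4 stood apart, where chance flags about 1 in 20. TRAV16N reads per clonotype were 2.83 in CTX_CD4 mouse 5, next to 1.93 in the nearest mouse. Mouse 5 also had the fewest α-chain clonotypes of all libraries (5043). For TRAV16D-DV11 the expanded share was 35% in mouse 5 against 7.48% in the next mouse, and its most abundant clonotype had 59 reads against 11. That clonotype is the 36-base join to TRAJ30 shown above, which encodes the same residues as 6 TRAV16N clonotypes. TRAV16D-DV11 had 269 clonotypes in CTX_CD4 mouse 2 against 187 in the next mouse, in the library with the most clonotypes (7695).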

How the results depend on the processing

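The difference in CDR3 length (−0.172 nucleotides, CTX_CD4 minus CTX) turned to a difference of 0.00578 nucleotides with the copies merged. The difference in TRAJ number (0.00833) turned to −0.347 in clonotypes of 2 or more reads and −0.32 weighted by reads, and ran from −0.342 to 0.369 with each mouse left out. The difference in clonotypes (−28.8) turned to 5.87 in those of 2 or more reads. The expanded share kept its direction in all alternatives. The difference of 16.9 points missed the threshold by the permutation test of the means (16.9), and against the other segments it was 8.21 points. Without 1 mouse it was 11.1 to 19.6 (exact Mann–Whitney p = 0.0571 to 0.0952, where no smaller value is possible), and 11.1 without CTX_CD4 mouse 5. With the replicate block, over 3 pairs, it was 11.6 points (exact p = 0.25, the smallest possible), and it was 16.9 without the sequences shared by CTX_CD4 mice 1 and 2 alone. The difference in read share, 1.47 points, had an exact Mann–Whitney p of 0.0357, and edgeR gave TRAV16N reads an unadjusted p of 0.0404. Neither test passed the threshold after adjustment over segments (adjusted p = 0.571 by Mann–Whitney and 0.743 by edgeR). Within the 5 CTX_CD4 mice, where no p under 0.0625 is possible, the differences from the other segments were 3.69 nucleotides, 1.68 in TRAJ number and −0.495 inserted nucleotides. TRAV16N minus TRAV16D-DV11 passed the threshold for CDR3 length weighted by reads (−0.368) and without CTX mouse 3 (range −0.36 to −0.191), and for inserted nucleotides by germline match (−0.336) and without CTX_CD4 mouse 5 (range −0.139 to −0.0337). Clonotypes in more than 1 mouse numbered 618 with V ignored, 121 among those of 2 or more reads and 330 without CTX_CD4 mouse 2. For TRAV16N reads the replicate block gave a log2 fold change of 0.19 (edgeR adjusted p = 0.645), not called in either fit. Apart from that of the expanded share, the block changed no call. Replicate numbers name different mice, and same-numbered mice did not deviate together (r −0.0995, 0.0392 and −0.0578 over V segments). Comparisons of TRAV16 itself, and of TRAV16N with it, were not run because it had no rows. Comparison with TRAV16D-DV11, merging of the copies in length, TRAJ number and expanded share, and the germline match were added after the data were seen.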

Other observations

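Across V segments whose names carry the N suffix of a repeated copy, TRAV16N was among the 9 of 26 with higher reads in CTX_CD4 mice, and the median log2 fold change of the 26 was −0.08, against 0.09 for the 31 segments with the D suffix, 0.05 for the 46 with neither and 0.04 over all 103. Over all 103 segments 52 were higher. By edgeR 0 of the 103 passed an adjusted p under 0.05, and DESeq2 called 0. An unadjusted p under 0.05 by edgeR was given to 6 of the 103, 5 of them among the 26 with the N suffix (TRAV16N included), 0 among the 31 and 1 among the 46. Of these 5, TRAV16N alone was higher in CTX_CD4 mice (log2 fold change 0.33). The rest were lower, TRAV12N-3 at −0.48, TRAV4N-3 at −0.66, TRAV12N-1 at −0.63 and TRAV9N-3 at −0.59.

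Where all 17 V bases of TRAV16N were matched, the next CDR3 base was C in 709 clonotypes, G in 211, A in 187 and T in 135. C is the complement of the last V base. CDR3 lengths of TRAV16N ran from 27 to 108 nucleotides, and 27 rows (0.87%) had a D segment named.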
